A study of Mus musculus with 24 samples.

Results

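The prostanoid synthases and receptors described here are 10 genes of prostaglandin and thromboxane signalling, Ptgs1, Ptgs2, Ptgis, Ptges, Tbxas1, Tbxa2r, Ptgfr, Ptgir, Ptger3 and Ptger4. They were found through the accession that each array probe carries, which gave 14 of the 41174 probes on the array and 10 of the 18539 named genes. Where a gene had several probes, its brightest probe in the tissue was read. The arrays came from male wild-type C57BL/6 mice (WT) and from animals in which both copies of the galectin-3 gene carry an engineered deletion (KO, Galectin-3(-/-)), present in every tissue. From 8 weeks of age they received chow (12% of calories from fat) or HFD, a diet with 60% of calories from fat, for 8 weeks. Live cells positive for the endothelial surface protein endoglin (CD105) and negative for the leukocyte antigen CD45 were then sorted from aorta or from a group of leg muscles (plantaris, gastrocnemius and biceps femoris), about 10000 cells for each pool of 3 to 4 mice. The 8 groups of tissue, strain and diet held 3 pools each, 1 from each of 3 experiments, and the amplified RNA of each pool was hybridised to 1 of 24 single-colour Agilent arrays. A value is the log2 signal of one array after scaling to its own 75th percentile, so that 0 is the level of a fairly bright probe and 1 unit is a doubling. The level of a probe was not compared with that of another probe.

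Prostanoids are made in steps. Phospholipases free arachidonic acid from membranes, the cyclooxygenases Ptgs1 (COX-1, present in most cells) and Ptgs2 (COX-2, inducible) turn it into prostaglandin H2, and a terminal synthase then decides which prostanoid is formed. Ptgis makes prostacyclin, which relaxes vessels and restrains platelets, Tbxas1 makes thromboxane A2, which constricts vessels and activates platelets, and Ptges makes prostaglandin E2. The products act through G protein-coupled receptors, Ptgir for prostacyclin, Tbxa2r for thromboxane A2, Ptgfr for prostaglandin F2 alpha, and Ptger3 and Ptger4 for prostaglandin E2, of which Ptger3 lowers and Ptger4 raises cyclic AMP. In a vessel wall, endothelium, smooth muscle and adventitial fibroblasts each hold part of this pathway.

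As the results below turn on genes that were higher in the aortic cells, the 100 bases before a transcript start of 5 of these 6 genes are given first, 5′ to 3′ on the strand of the gene, from RefSeq on GRCm38.p6. The start used need not be the outermost one. The window of Ptges lies wholly, and that of Ptger3 partly, within the span of the gene. Capitals mark 2 motifs that were searched on both strands, the GC box GGGCGG, bound by Sp1-type factors, and the palindrome TTGCGCAA, a form of the C/EBP site.
Ptgs2, chr1:150099931-150100030, plus strand: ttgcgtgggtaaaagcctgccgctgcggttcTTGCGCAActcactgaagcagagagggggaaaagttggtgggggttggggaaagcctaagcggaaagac
Ptges, chr2:30903298-30903397, minus strand: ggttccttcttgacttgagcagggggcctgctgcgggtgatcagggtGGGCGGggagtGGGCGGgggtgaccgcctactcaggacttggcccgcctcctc
Ptgfr, chr3:151837529-151837628, minus strand: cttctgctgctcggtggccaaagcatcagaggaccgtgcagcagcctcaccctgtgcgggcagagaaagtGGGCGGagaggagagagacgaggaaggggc
Ptgir, chr7:16906390-16906489, plus strand: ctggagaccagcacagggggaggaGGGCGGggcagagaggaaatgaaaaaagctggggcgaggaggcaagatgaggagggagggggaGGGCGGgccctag
Ptger3, chr3:157566776-157566875, plus strand: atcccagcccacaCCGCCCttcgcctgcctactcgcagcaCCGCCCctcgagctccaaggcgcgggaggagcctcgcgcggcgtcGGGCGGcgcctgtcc

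Over the 250 bases before the transcript start used, the GC box was found 1 time in Ptgs2 and Ptgfr and 2 times in Ptges and Ptgir. It was found 3 times in Ptger3, 4 times in Ptger4, and 0 times in Ptgs1, Tbxas1 and Tbxa2r. The windows of Ptgs1 and Tbxas1, and that of a further start of Tbxa2r, lay within the gene. For Ptgs1 and Tbxas1 the bases before the outermost start were thus not searched. The GC box was counted on both strands. It is a common motif, held by 10756 of 32851 promoters (32.7%), and it was found both in genes that were higher in aorta and in Ptger4, which was not. The C/EBP palindrome stood in 54 of these promoters (0.164%), that of Ptgs2 among them and no other of the genes described. Each match is a run of letters in this window, and binding was not measured. Ptgis was not among the promoter entries used here.

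The 75th percentile of the signal lay between 2390 and 5938 over the arrays, and the share of spots well above background was 59.5% to 75.7%. Endothelial markers were well above background throughout, and 12 of 14 of them were lower in the aortic cells than in the muscle cells (median log2 difference −1.06, against −0.27 for all probes tested). The 8 fibroblast markers were all higher in aorta (median 4.16) and the 9 skeletal muscle fibre markers all lower (median −6.30), and the sorted populations of both tissues held markers of other cells beside those of endothelium. The probe for Lgals3, the deleted gene, was well above background on all 24 arrays and its mean was higher in the groups labelled KO, by 1.54 on the log2 scale in aorta and 1.02 in muscle, with an adjusted p of 0.846 for the aorta. Whether this probe lies within the deleted stretch was not determined, so that it does not check the labels. At 20 probes that separated the strains in experiments 2 and 3, the 4 HFD arrays of experiment 1 lay between them. On a scale from 0 (WT) to 1 (KO) these stood at 0.26 and 0.38 for the arrays labelled WT (aorta and muscle) and at 0.43 and 0.45 for those labelled KO, and the comparisons of strains are therefore also given without experiment 1.

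Aortic and muscle cells were compared first, since it gave the widest differences for these genes. The 6 genes Ptgs2, Ptgis, Ptges, Ptgfr, Ptgir and Ptger3 were higher in the aortic cells and 0 were lower by limma over all 24 arrays with Benjamini-Hochberg adjustment. Of the 27387 probes tested, 28.1% were called in either direction, 11.4% higher and 16.7% lower in aorta. Ptgs2, Ptgfr and Ptger3 passed the filter on dim probes through the aortic groups alone, since in none of the muscle groups were all 3 arrays well above background, so that the count of 6 is a description and is not read against this background. Of the 7 genes that passed the filter in muscle as well, Ptgis, Ptges and Ptgir were called. With no filter the same 6 genes were called beside 17.4% of all probes, and when all 24 arrays had to be well above background 4 of the genes were tested and only Ptgir was called, beside 28.7% of probes. The share of higher calls depended on the scaling, with 40.7% of the 7694 called probes higher in aorta here and 66.8% of 6272 in the table the authors deposited, and the same 6 genes were called higher in both. The median difference of the 10 genes was 2.46 on the log2 scale (−0.27 for all probes). It holds Ptgs2, Ptgfr and Ptger3, so it too is a description and is not read against all probes. In bulk RNA of this kind, fewer cells of a type and less RNA per cell cannot be told apart.

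**Figure D1:**
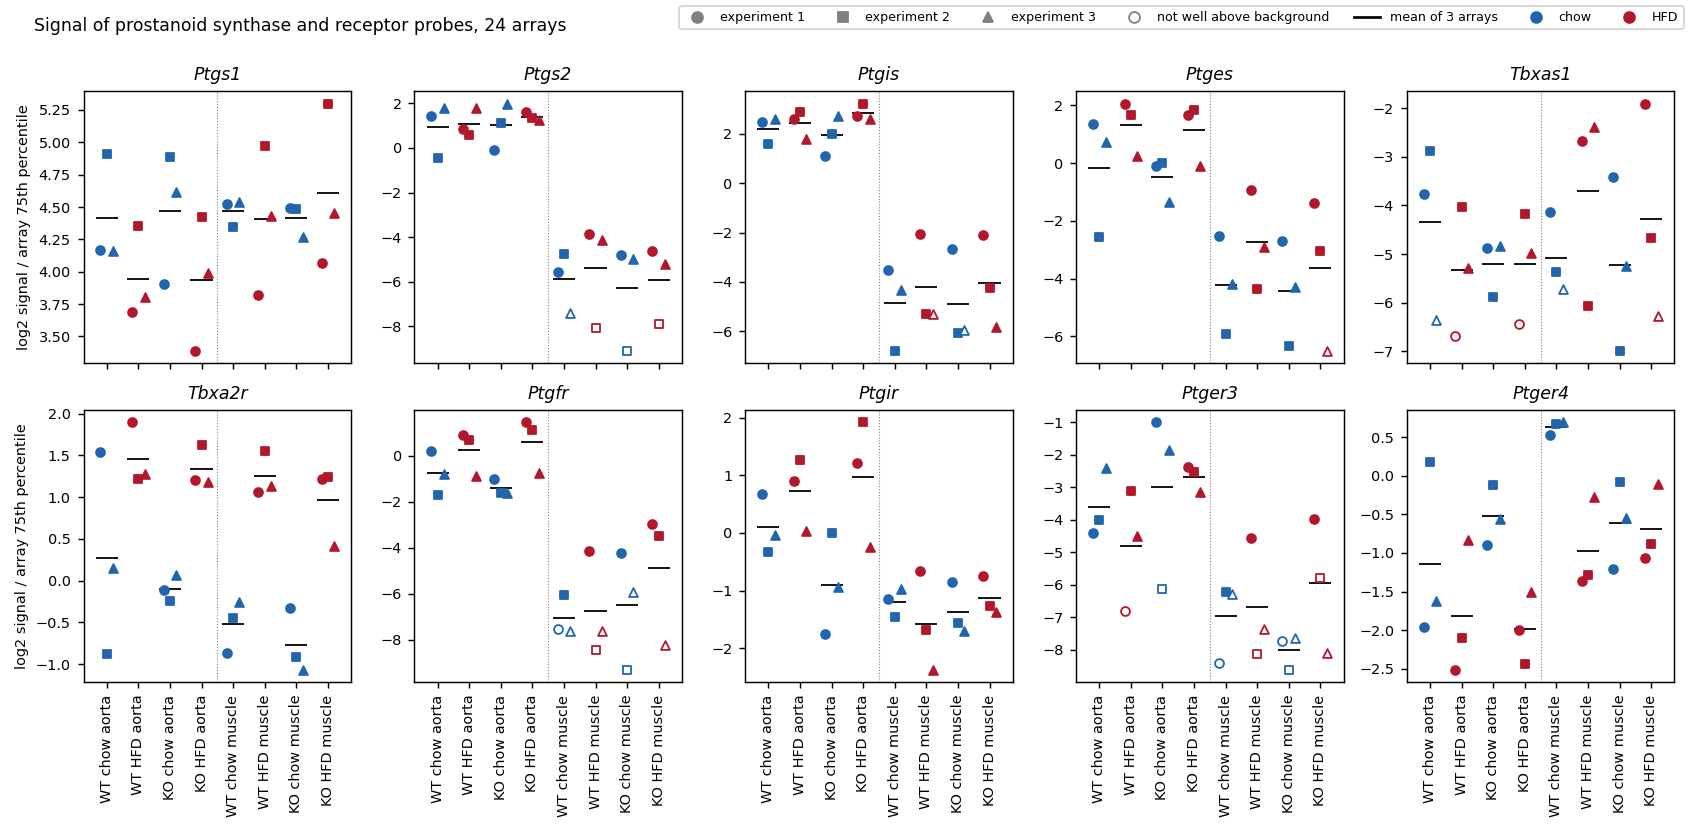
Log2 signal after scaling to the 75th percentile of each array (vertical axes, with a range of its own for each gene) in the 8 groups of strain, diet and tissue, with 1 point for each of 24 arrays, the shape giving the experiment and the colour the diet. Lines are means of 3 arrays and open points were not well above background. Ptgs2, Ptgis and Ptgfr form separate bands for aorta and muscle, while the bands of Ptgs1 and Tbxas1 coincide, and Tbxa2r in muscle separates by diet.

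The cyclooxygenases parted from each other. Ptgs2 ran from −0.47 to 1.99 over the 12 aortic arrays (median 1.29) and from −9.09 to −3.85 over the 12 muscle arrays (median −5.09). The lowest aortic array lay well above the highest muscle array, and the signal was well above background on 12 of 12 aortic and 8 of 12 muscle arrays. The fitted difference was 6.96 (SE 0.80, 95% interval 5.28 to 8.63, adjusted p = 3.95e-06), and a dimmer probe of the same transcript gave 6.52. With each dim array taken at the lowest signal that was well above background on it, a setting chosen after the values had been seen, Ptgs2 was at least 78.3-fold higher in aorta. The 4 aortic groups held the 4 highest means and the 4 muscle groups the 4 lowest, and within each tissue no neighbouring means differed by more than their SD.

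Ptgs1 was bright in both tissues. It ran from 3.39 to 4.91 in aorta (median 4.16) and from 3.82 to 5.30 in muscle (median 4.47), and it was well above background on all 24 arrays. The ranges overlapped over most of their length. The difference was −0.29 (SE 0.23, 95% interval −0.77 to 0.20, adjusted p = 0.373), and the aortic array was the higher of its pool's pair in 3 of 12 pools. The interval does not reach 1 unit in either direction. Over the 8 groups the means lay between 3.93 and 4.61, and no neighbouring groups in that order differed by more than their SD.

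Ptgis, the prostacyclin synthase, ran from 1.101 to 3.22 in aorta (median 2.60) and from −6.79 to −2.06 in muscle (median −4.80). The tissues were again fully apart. Its difference of 6.87 (SE 0.62, 95% interval 5.57 to 8.16, adjusted p = 3.03e-07) was as wide as that of Ptgs2, the enzyme before it in prostacyclin synthesis, and amounts to at least 114-fold with dim arrays at the floor. In muscle the 4 arrays of experiment 1 stood highest, at −3.51 (WT chow), −2.06 (WT HFD), −2.68 (KO chow) and −2.09 (KO HFD), and the other 8 lay between −6.79 and −4.23. The muscle arrays of experiment 1 also had the higher sums of fibroblast marker signal, 111 to 225 times the 75th percentile against 23.98 to 138 in experiments 2 and 3. The sums of skeletal muscle fibre markers did not overlap, at 114 to 164 against 21.0 to 85.1. Nor did those of platelet markers, at 8.88 to 19.0 against 2.87 to 7.88. Macrophage sums were 1.70 to 11.7 against 0.171 to 2.73, and endothelial sums 571 to 717 against 588 to 913. Experiment 1 was also scanned in a session of its own. The part of these markers in the level of Ptgis was not tested, and the share of all probes with this pattern was not counted. Without experiment 1 the difference between the tissues was 7.89.

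Ptges, which forms prostaglandin E2, ran from −2.57 to 2.06 in aorta (median 0.48) and from −6.50 to −0.93 in muscle (median −3.62). The lowest aortic arrays fell within the range of muscle, yet the aortic array was the higher one in 12 of 12 pools. The difference was 4.21 (SE 0.84, 95% interval 2.45 to 5.98, adjusted p = 0.00102). As with Ptgis, the muscle arrays of experiment 1 were the highest 4, from −2.70 to −0.93, and the other 8 ran from −6.50 to −2.92. The share of all probes with this pattern was not counted, and nothing is read from it.

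Tbxas1, the thromboxane synthase, gave no such difference. It ran from −6.68 to −2.89 in aorta (median −4.93) and from −6.99 to −1.91 in muscle (median −4.96), with 9 and 10 of 12 arrays well above background. The difference of −0.45 had a wide interval (−2.12 to 1.23, adjusted p = 0.697), and the aortic array was the higher one in 7 of 12 pools. A level this dim allows a difference of more than 1 unit either way, so that likeness between the tissues is not shown. Macrophages are known to express this enzyme, and 0 of 8 macrophage markers tested were called between the tissues (median −0.19). The part of macrophages in the level of Tbxas1 was not tested.

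Of the receptors, Ptgfr (prostaglandin F2 alpha) ran from −1.70 to 1.45 in aorta (median −0.76) and from −9.30 to −2.96 in muscle (median −6.79). The tissues did not overlap, but only 5 of 12 muscle arrays were well above background. The fitted difference was 5.97 (SE 0.93, 95% interval 4.03 to 7.91, adjusted p = 9.71e-05), and the muscle level is best read as a bound that puts the gene at least 29.3-fold higher in aorta. Ptgs2, Ptgis and Ptgfr were thus the genes of the 10 whose 12 aortic arrays all lay above all 12 muscle arrays, a pattern found in 3.54% of all probes tested. As Ptgs2 and Ptgfr passed the filter through the aorta alone, nothing is read from this share. The aortic array was the higher of its pool's pair in 12 of 12 pools for Ptgs2, Ptgis, Ptgfr and Ptges. This held for 8.68% of all probes, and for the same reason nothing is read from that share.

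Ptgir, the receptor for prostacyclin, ran from −1.75 to 1.91 in aorta (median 0.02) and from −2.37 to −0.66 in muscle (median −1.32). The ranges overlapped, and aorta was higher in 11 of 12 pools. The difference was 1.54 (SE 0.37, 95% interval 0.77 to 2.31, adjusted p = 0.00415), much smaller than that of the synthase Ptgis. A dimmer probe of Ptgir, also well above background on all 24 arrays, gave −0.22 (95% interval −0.78 to 0.34), and the mean of both probes gave 0.66 (adjusted p = 0.0694), so the call rests on which probe is read. Without experiment 2 the difference on the brighter probe was 1.21 (adjusted p = 0.157).

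The receptors for prostaglandin E2 went different ways. Ptger3 ran from −6.82 to −1.01 in aorta (median −3.13), with 10 of 12 arrays well above background, and from −8.62 to −3.99 in muscle (median −7.50), with 3 of 12. In KO chow muscle it was well above background on 0 of 3 arrays, so that group has only an upper bound. The difference was 3.38 (SE 0.97, 95% interval 1.34 to 5.42, adjusted p = 0.0141), at least 4.43-fold with dim muscle arrays at the floor, and it was not called without experiment 2 (3.45, adjusted p = 0.0921) or experiment 3 (2.88, adjusted p = 0.0728). A further probe of Ptger3 was well above background on 0 of 24 arrays. Ptger4 ran from −2.51 to 0.17 in aorta (median −1.57) and from −1.36 to 0.69 in muscle (median −0.41). Its difference of −0.95 (SE 0.36, 95% interval −1.72 to −0.19) missed the threshold (adjusted p = 0.058), with aorta higher in 1 of 12 pools. Aorta and muscle of a pool came from the same mice, and with the pool as a replicate block Ptger4 was lower in aorta (adjusted p = 0.000954) and the calls of the other genes were the same, while 15402 probes were called in place of 7694.

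Tbxa2r, the thromboxane receptor, ran from −0.88 to 1.89 in aorta (median 1.19) and from −1.07 to 1.55 in muscle (median 0.08), well above background on all 24 arrays. The difference of 0.51 (SE 0.31, 95% interval −0.14 to 1.16, adjusted p = 0.228) was not called. Of the 10 genes it was the one whose group means were ordered by diet before tissue, with the 4 HFD groups at 0.96 to 1.46 and the 4 chow groups at −0.77 to 0.27. No neighbouring means in that order differed by more than their SD, apart from KO chow aorta above WT chow muscle.

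**Figure D2:**
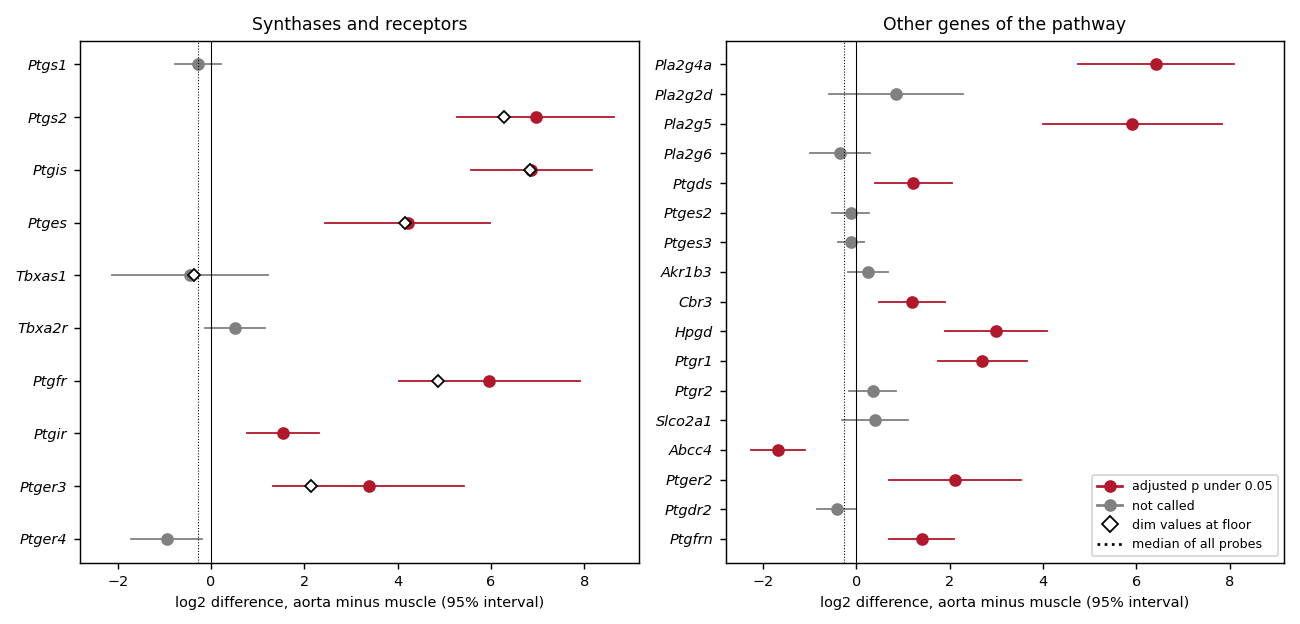
Fitted log2 difference between aortic and muscle cells (horizontal axis, aorta minus muscle) with 95% intervals for the 10 synthases and receptors (left) and the other genes of the pathway that were tested (right). Red marks an adjusted p under 0.05, the dotted line is the median of all probes (−0.27) and diamonds take dim values of the lower tissue at the floor. Ptgs2 and Ptgis lie near 7, and Ptgs1, Tbxas1 and Tbxa2r have intervals that cross 0.

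The calls for Ptgs2, Ptgis, Ptges and Ptgfr held without each experiment in turn. Without experiment 1 the same 6 genes were called, with 16.6% of all probes called. Without experiment 2, 4 genes were called, and the called probes numbered 3009 in place of 7694. Fibroblast markers moved with these genes, since all 8 were higher in aorta and their summed signal was 312 to 686 times the 75th percentile there and 23.98 to 225 in muscle. Smooth muscle markers did not move the same way, as 0 of 10 were called higher in aorta and 5 were called lower, with sums of 45.2 to 98.4 in aorta and 62.6 to 127 in muscle. Of the pericyte markers 4 of 7 were lower in aorta. Adipocyte markers were higher in aorta for 5 of 8 and lower for 1, though Lep was well above background on 0 aortic arrays and 1 muscle array. Of 5 lymphatic endothelial markers 2 were higher in aorta, and their sums were 19.1 to 71.9 there and 0.530 to 23.2 in muscle. The part of fibroblasts, adipocytes, lymphatic endothelium or other cells in the higher signal of the 6 genes was not tested.

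**Figure D3:**
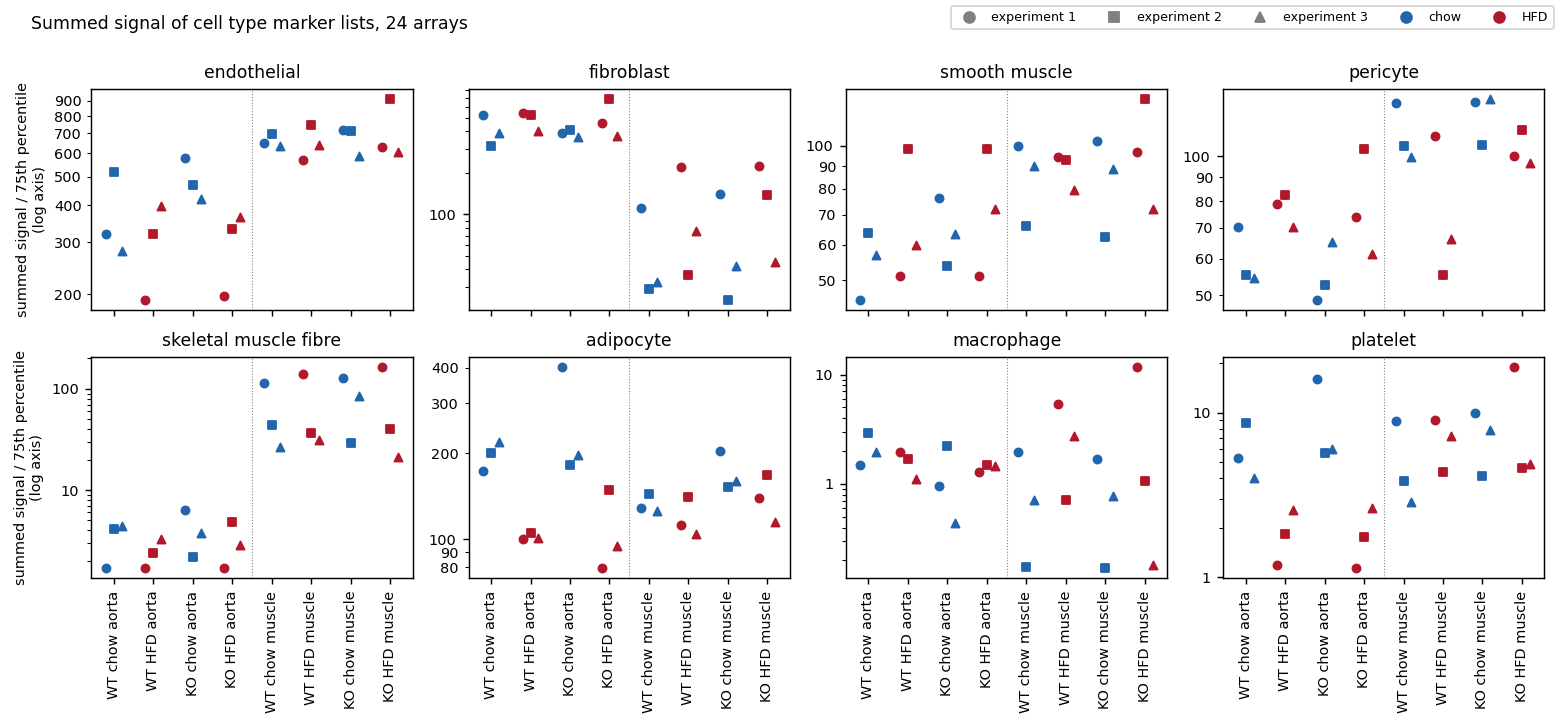
Summed signal of 8 lists of cell type markers in multiples of the 75th percentile of each array (vertical log axes), for each of 24 arrays in the 8 groups, with shapes for experiments and colours for diets. Fibroblast markers lie higher in aorta (312 to 686) than in muscle (23.98 to 225), endothelial and muscle fibre markers lie lower, and adipocyte and platelet markers of the aorta separate by diet.

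The wider pathway was read from a list of 25 other genes, of which 21 had a probe and 17 were tested over both tissues. Of these 17, 8 were called higher in aorta and 1 lower, where 11.4% of all probes were called higher and 16.7% lower. The median difference of the 17 was 0.85 (−0.27 for all probes). The phospholipases that release arachidonic acid went different ways. Pla2g4a (6.42, adjusted p = 9.4e-06) and Pla2g5 (5.92, adjusted p = 9.36e-05) led the list, while Pla2g2d (0.85, adjusted p = 0.367) and Pla2g6 (−0.35, adjusted p = 0.408) were not called. Genes that break prostaglandins down were also higher in aorta, Hpgd by 3.00 and Ptgr1 by 2.70. Ptger2, the other receptor that raises cyclic AMP on prostaglandin E2, was higher by 2.11 (adjusted p = 0.0254), where Ptger4 was not. The remaining calls were Ptgfrn (1.404), the prostaglandin D2 synthase Ptgds (1.22), Cbr3 (1.197) and, lower in aorta, Abcc4 (−1.68), a transporter that exports prostanoids. The isoforms of the prostaglandin E2 synthase, Ptges2 and Ptges3, both had a difference of −0.12 and were not called, in contrast with the 4.21 of Ptges.

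The comparison of HFD with chow, within each strain and experiment, was the design's main question. In muscle cells Tbxa2r was higher on HFD. On chow it stood at −0.86, −0.45 and −0.25 in WT and at −0.33, −0.92 and −1.07 in KO, in experiments 1, 2 and 3. On HFD it stood at 1.06, 1.55 and 1.14 in WT and at 1.22, 1.25 and 0.42 in KO. All 6 HFD arrays lay above all 6 chow arrays, which held for 1.00% of the probes in muscle, and HFD was the higher one in 6 of 6 pairs, which held for 5.63%. The mean over both strains was 1.75 on the log2 scale (SE 0.17, 95% interval 1.34 to 2.16, 3.37-fold, adjusted p = 0.0358). Of the 7 genes tested in muscle it was the only one called, where 0.288% of all probes were called and 0.167% were called higher. At an unadjusted p under 0.05 it was joined by Ptger4 (−0.84), so that 2 of 7 stood against 16.4% of all probes.

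The response of Tbxa2r was alike in size in both strains. The log2 ratio of HFD to chow in muscle was 1.92, 2.00 and 1.39 in WT (1.77 ± 0.33, SD, n = 3) and 1.55, 2.16 and 1.49 in KO (1.73 ± 0.38). Within single strains it was not called (limma adjusted p = 0.111 in WT and 0.239 in KO), with 0 of all probes called in WT and 0.00389% (1 probe) in KO. The difference between strains was −0.04 (95% interval −0.86 to 0.78), or 0.13 without experiment 1. In the aorta the same receptor had a mean response of 1.31 (SE 0.27, 95% interval 0.67 to 1.95), with HFD higher in 6 of 6 pairs (5.85% of all probes there), and was not called (adjusted p = 0.149, unadjusted p = 0.00203). The response of the tissues differed by −0.44 (95% interval −1.15 to 0.27, adjusted p = 0.741).

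The size of the muscle response changed little with the experiments used, and its call rested on all of them. Without experiment 1, in which the HFD arrays lay between the strains, it was 1.76 (adjusted p = 0.259), without experiment 2 it was 1.59 (adjusted p = 0.276) and without experiment 3 it was 1.91 (adjusted p = 0.185), where 0 probes in all were called. With no filter on dim probes the adjusted p was 0.143. Fibroblast markers in muscle had HFD above chow for 8 of 8, with a median of 1.02, 6 at an unadjusted p under 0.05 and 0 called, and their sums ran from 23.98 to 140 on chow and 36.4 to 225 on HFD. The medians of their ratios ranged from 0.37 to 1.55 in WT and 0.25 to 2.02 in KO over the experiments. Macrophage markers in muscle had a median of 1.58, with 6 of 7 above 0 and 3 at an unadjusted p under 0.05, and sums of 0.171 to 1.96 on chow and 0.183 to 11.7 on HFD. By experiment the medians of the macrophage ratios were 0.93, 3.82 and 1.58 in WT and 2.56, 2.30 and −2.68 in KO. Pericyte markers had a median of −0.47, with 5 of 7 lower at an unadjusted p under 0.05, and sums of 99.5 to 133 on chow and 55.3 to 114 on HFD. Adipocyte markers had a median of −0.50, with 0 of 8 above 0. None of these markers was called, and their part in the response of Tbxa2r was not tested. Platelets carry this receptor too, and the platelet markers in muscle had a median of 0.07 with 0 of 5 at an unadjusted p under 0.05. Over the experiments the medians of the platelet ratios ran from −0.66 to 1.25 in WT and from −0.45 to 0.13 in KO. The endothelial markers in muscle had a median of −0.02. The part of platelets or endothelium in the response was not tested either.

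**Figure D4:**
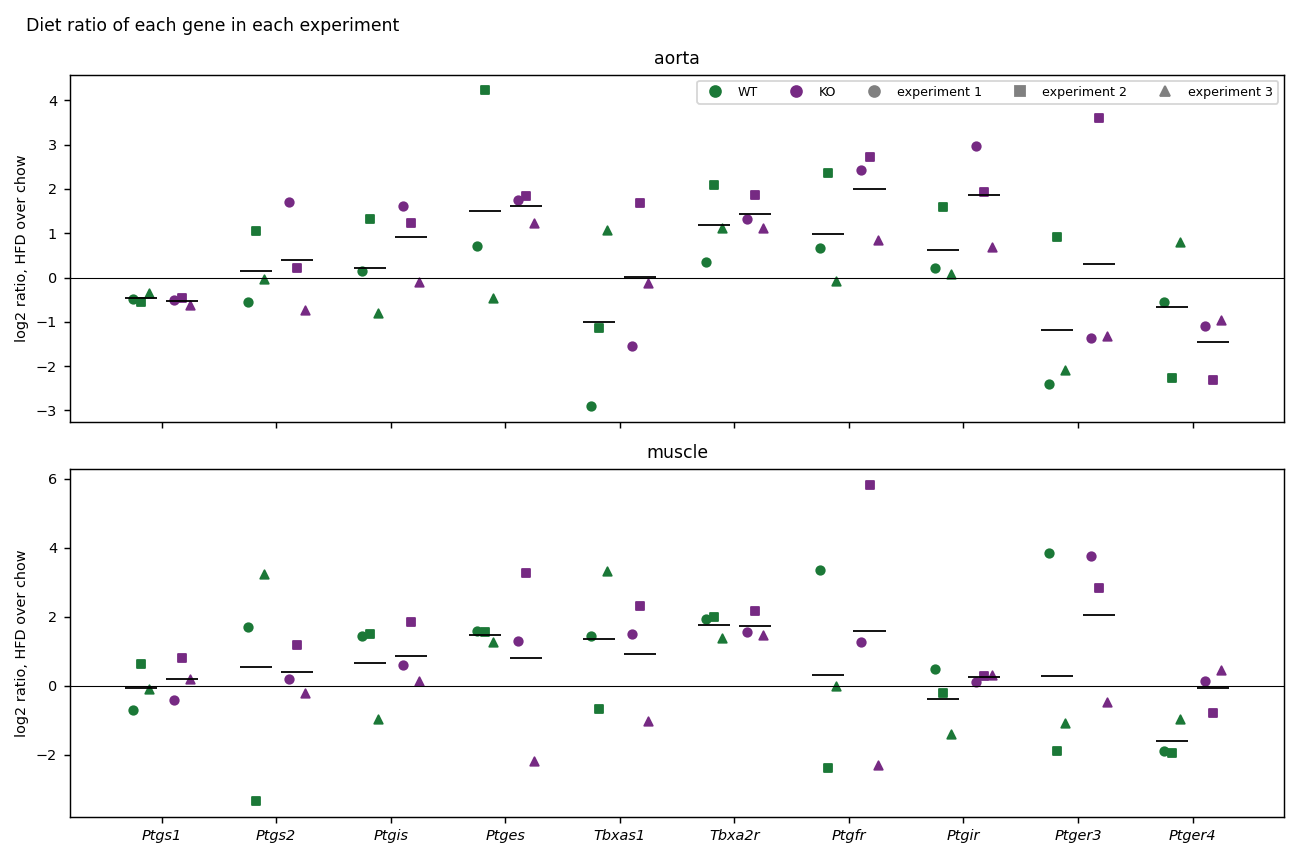
Log2 ratio of HFD to chow (vertical axes) for each of the 10 genes in aorta (top) and muscle (bottom), with 1 point for each strain and experiment and lines at the mean of 3 experiments. Tbxa2r is above 0 in all 12 pairs, Ptgs1 lies below 0 in all 6 aortic pairs, and Ptger4 in muscle lies below 0 in all 3 WT pairs, at −1.90, −1.96 and −0.97. In muscle the ratios of Ptgs2, Ptgfr and Ptger3 spread widely, where many arrays were not well above background.

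Ptger4 had the widest gap between strains in the diet ratio among the 7 genes tested in muscle. On chow it stood at 0.53, 0.67 and 0.69 in WT, the most even of its groups, and at −1.21, −0.08 and −0.55 in KO. On HFD it stood at −1.36, −1.29 and −0.28 in WT and at −1.06, −0.88 and −0.10 in KO. The WT chow arrays lay above all other muscle arrays, and WT chow muscle was the one group whose mean stood above the next by more than the SD of either, 0.63 against −0.52 in KO chow aorta. Ptger4 was picked here for its gap, and the share of all probes with such an order was not counted. Nothing is read from this order. The ratio of HFD to chow was −1.61 ± 0.56 in WT (SD, n = 3, limma adjusted p = 0.197) and −0.07 ± 0.65 in KO. HFD was below chow in all 3 WT pairs, which held for 19.4% of all probes. The difference of 1.54 between strains (95% interval 0.44 to 2.64) had an unadjusted p of 0.0131 and an adjusted p of 0.999 by limma, where 4.12% of all probes had an unadjusted p under 0.05 and 0 were called. Without experiment 1 the difference was 1.29 (unadjusted p = 0.116).

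In the aorta 0 of the 10 genes were called for diet, with 0.0309% of all probes called. At an unadjusted p under 0.05 there were 6 of 10, 4 with HFD above chow and 2 with HFD below, against 15.1% of all probes (8.45% above and 6.68% below). Ptgfr had a mean ratio of 1.496 over both strains (adjusted p = 0.209), Ptges of 1.55 (adjusted p = 0.291) and Ptgir of 1.24 (adjusted p = 0.230), beside the 1.31 of Tbxa2r. Ptger4 had a mean ratio of −1.07 (adjusted p = 0.308) and Ptgs1 of −0.50 (adjusted p = 0.261). The single ratios of Ptger4 were −0.55, −2.28 and 0.79 in WT and −1.10, −2.32 and −0.95 in KO. Experiment 2 held the widest ratios of several genes, and without it the means were −0.45 for Ptger4, 0.97 for Ptgfr and 0.81 for Ptges.

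Ptgs1 in the aorta was the most even of these. Its ratio was −0.48, −0.56 and −0.36 in WT (−0.46 ± 0.10, SD, n = 3) and −0.52, −0.46 and −0.63 in KO (−0.53 ± 0.09). HFD was below chow in 6 of 6 pairs, which held for 4.55% of the probes in aorta. The levels themselves overlapped, at 3.91 to 4.91 on chow and 3.39 to 4.42 on HFD, since the experiments differed by more than the diets. In muscle the same gene had a mean ratio of 0.07 (95% interval −0.51 to 0.64).

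Ptges was less even in WT aorta, with ratios of 0.72, 4.23 and −0.46, than in KO aorta, with 1.75, 1.83 and 1.23 (1.60 ± 0.32). The WT value of 4.23 comes from a chow array at −2.57, the lowest of the aortic arrays. In muscle the strains changed places, with 1.59, 1.55 and 1.26 in WT (1.47 ± 0.18) and 1.31, 3.28 and −2.20 in KO. The last of these comes from an HFD array that was not well above background.

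By the study's own criterion, a ratio past 1 in all 3 experiments, Ptges and Tbxa2r were higher on HFD in KO aorta and in WT muscle, and Tbxa2r in KO muscle. The share of probes that met it in the higher direction was 1.81% in KO aorta, 0.872% in WT muscle and 0.459% in KO muscle. In WT aorta, where 0.735% of probes met it, 0 of the 10 genes did, since Tbxa2r had ratios of 0.35, 2.10 and 1.13. No gene of the 10 met it in the lower direction in any of the 4 settings, where 0.530% to 1.12% of probes did.

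Ptgir and Ptgfr varied more between strains and experiments in the aorta. Ptgir had ratios of 0.22, 1.58 and 0.08 in WT and 2.97, 1.92 and 0.69 in KO, and its dimmer probe had a mean ratio of 0.06, so that the probes again gave different readings. The diet ratio of Ptgir was 1.31 higher in aorta than in muscle (unadjusted p = 0.0164, adjusted p = 0.412), while 9.24% of all probes had an unadjusted p under 0.05 in that comparison and 0 were called. Ptgfr had ratios of 0.66, 2.37 and −0.07 in WT and 2.44, 2.73 and 0.86 in KO. Both genes had their lowest ratio of each strain in experiment 3. The differences between strains, 1.24 for Ptgir (95% interval −0.46 to 2.93) and 1.02 for Ptgfr (−0.86 to 2.90), had intervals that cross 0. Without experiment 1 they were 0.48 and 0.64.

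For the other genes the diet ratios were small against their spread. In the aorta the mean ratio over both strains was 0.27 for Ptgs2 (95% interval −0.61 to 1.15), 0.57 for Ptgis (−0.27 to 1.41), −0.50 for Tbxas1 (−1.93 to 0.93) and −0.44 for Ptger3 (−2.30 to 1.42). In muscle it was 0.76 for Ptgis (−0.17 to 1.69), 1.13 for Ptges (−0.37 to 2.63), 1.15 for Tbxas1 (−0.29 to 2.58) and −0.07 for Ptgir (−0.67 to 0.53). Ptgs2, Ptgfr and Ptger3 were too dim in muscle to be tested for diet, because in none of the 4 muscle groups were all 3 arrays well above background.

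Other RNA of the aortic cells moved with diet. All 14 endothelial markers had HFD below chow in the mean of both strains (median −0.61, 5 at an unadjusted p under 0.05). Their sums were 281 to 577 on chow and 192 to 397 on HFD. By experiment the medians of their ratios were −1.01, −0.92 and 0.48 in WT and −1.61, −0.68 and −0.19 in KO. Adipocyte markers had a median of −3.37, with sums of 173 to 401 on chow and 79.4 to 149 on HFD, and platelet markers a median of −2.02, with sums of 3.99 to 16.2 and 1.14 to 2.62. The diets did not overlap for these last lists. Fibroblast markers had HFD above chow for 8 of 8 (median 0.43). Pericyte markers had a median of 0.48, with 3 of 7 higher at an unadjusted p under 0.05 and sums of 48.9 to 70.2 on chow and 61.4 to 104 on HFD, and 2 of 10 smooth muscle markers were higher at that p (median 0.19). None of these markers was called, and their part in the ratios of the 10 genes was not tested.

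Among the 17 other genes of the pathway tested, 0 were called for diet in either tissue. At an unadjusted p under 0.05, in the aorta, Ptgr1 (1.14) and Ptgfrn (1.18) had HFD above chow, and Pla2g5 (−1.45), Ptger2 (−1.32), Pla2g2d (−0.89) and the prostaglandin uptake transporter Slco2a1 (−0.73) had HFD below chow. Of all probes in aorta, 8.45% had HFD above chow and 6.68% below at that p. Ptger2 had ratios of −1.44, −1.001 and −1.84 in KO aorta, past −1 in all 3 experiments, beside the −1.46 ± 0.75 of Ptger4, the related receptor. In muscle the 4 genes at an unadjusted p under 0.05 all had HFD above chow, Pla2g4a (2.36), Hpgd (1.31), Slco2a1 (0.52) and Akr1b3 (0.46). They stand beside 16.4% of all probes at that p in either direction. The ratios of Pla2g4a in muscle ran from 0.34 to 6.09 and were widest in experiment 2. Its probe was well above background on 10 of 12 muscle arrays.

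Between the strains, averaged over both diets, 0 of the 10 genes were called in either tissue and 0 had an unadjusted p under 0.05. In the aorta the difference between KO and WT ran from −0.38 for Ptgir (95% interval −1.33 to 0.56) to 1.37 for Ptger3 (−0.57 to 3.30). The dimmer probe of Ptgir had the other sign there, at 0.25 (−0.37 to 0.88). In muscle, over the 7 genes tested, the difference ran from −0.57 for Ptges (−2.76 to 1.62) to 0.13 for Ptgir (−0.51 to 0.77). Of all probes 0.0116% in aorta and 0 in muscle were called, and 3.39% and 3.27% had an unadjusted p under 0.05. Without experiment 1, 0 of the 10 genes had an unadjusted p under 0.05 in either tissue, and the differences ran from −0.33 (Tbxas1) to 0.50 (Ptgs2) in aorta and from −0.91 (Tbxas1) to 0.15 (Ptgir) in muscle. The 1.37 of Ptger3 rested on that experiment, being 0.09 without it, and was 2.44 without experiment 2 (unadjusted p = 0.00873, adjusted p = 0.871). In muscle Tbxa2r moved from −0.27 to −0.58 without experiment 1. The narrowest of these intervals, over all experiments, in either tissue was that of Tbxa2r in muscle, −0.76 to 0.22.

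Last, the genes whose pattern over the 24 arrays was most like those of the 10 were sought among 14438 genes by Pearson's r. The arrays fall in 2 tissues, so that a high r can rest on the tissue difference alone, and r within each tissue is given beside it as a description. For Ptgis it was Nupr1 with 0.99 (0.76 within aorta and 0.92 within muscle), followed by Tgfbi (0.74 and 0.94). For Ptges it was Kctd15 with 0.98 (0.95 and 0.94), for Ptgfr Aldh1a1 with 0.97 (0.71 and 0.88), for Ptgs2 Antxr1 with 0.96 (0.72 and 0.72) and for Ptgir Pex5l with 0.94 (0.91 and 0.70). The pattern of Tbxa2r, which did not part by tissue, was most like that of G6pc3 (0.90 over all arrays, 0.87 and 0.92 within tissues) and of Col15a1, a basement membrane collagen (0.90, 0.90 and 0.93). For Ptger4 it was Pif1 (0.89, with 0.90 and 0.78 within tissues) followed by the endothelial marker Pecam1 (0.87, with 0.90 and 0.79). For Ptgs1 it was Hyal2 (0.86, with 0.83 and 0.85). For Tbxas1 it was Clec4a3 (0.81, with 0.80 and 0.84), followed by Cd74, a gene of antigen-presenting cells (0.80, with 0.56 within aorta and 0.91 within muscle).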

How the data were processed

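Single-colour arrays of 24 pools were read. Per the file headers, the authors' intensities are the processed signals of Agilent Feature Extraction 10.5.1.1 (the submitters' processing notes name 9.1), with background subtracted and no scaling between arrays. The log2 table the authors deposited equals the log2 of these signals plus 1 constant per array. For the present report the 75th percentile over the 43379 non-control spots of an array served as its scale, log2 was taken after division by it, outlier spots were left out and spots of a probe averaged. Of 41174 probes, 27198 were named by accession. A probe entered a test if it was well above background on all 3 arrays of at least 1 group, which left 25865 probes for the aorta, 25682 for muscle and 27387 for the tissue comparison.

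Contrasts were fitted across all probes with limma 3.58.1 (lmFit and eBayes, R 4.3.3) with a call at p under 0.05 after Benjamini-Hochberg adjustment. Diet was tested with a replicate block for each strain and experiment, as the study's methods use ratios within an experiment. Strain was tested on group means, and tissue on 8 group means with the slide as a random block (correlation 0.28). Each slide holds the 4 groups of 1 tissue and experiment, and experiment 1 was scanned in a session of its own. Tissue and slide cannot be told apart within an experiment. P values measure the spread between pools. Array position followed the group within each experiment. WT chow, WT HFD, KO chow and KO HFD sat at positions 4, 2, 3 and 1 in experiments 2 and 3. In experiment 1 they sat at positions 2, 4, 1 and 3. KO arrays were thus at positions 1 and 3 on every slide, so strain and position cannot be told apart. In experiments 2 and 3 alone, diet and position cannot be told apart either. The alternatives were normexp (offset 50, on median signals), quantile normalization, the deposited table, other filters, other blocks, leaving out an experiment and the methods' t-test. The number of arrays limits the precision. Scripts were tested on simulated data. The 10 genes, the marker lists and the wider pathway list were chosen with earlier results of these data known. Named genes are these, those of the lists that were called or are isoforms or relatives, and the 3 most like each by r, some of which are not reported here. Analyses used Python 3.11.15, numpy 2.4.6, pandas 2.3.3 and matplotlib 3.10.9.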

Additional observations from a re-analysis of the deposited data

How the results depend on the processing

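Of the alternative values for single genes, 300 kept their direction and side of the threshold, 8 were weaker, 4 stronger and 2 reversed. Of these, Tbxas1 between aorta and muscle ran from −1.43 to 0.53 without 1 experiment (adjusted p = 0.701 for the latter), and Ptges between KO and WT muscle from −1.08 to 0.067. The replicate block of strain and experiment was taken from the study's methods. Deviations from the group means correlated by 0.00944 to 0.456 within pairs, and 17 of 24 arrays went best with their own experiment. Without the replicate block the counts of called probes for HFD against chow were 50 in aorta (mean of strains), 4 in WT and 7 in KO aorta, 1 in WT and 4 in KO muscle, in place of 8, 0, 0, 0 and 1. With the slide as the replicate block they were 58, 2 and 4 in aorta, 274 in muscle (mean, in place of 74) and 4 in KO muscle. Under normexp they were 55, 2, 4, 221, 8 and 5 in the same order, and among probes well above background on every array 41, 2, 5, 247, 29 and 2. With no filter the means gave 5 and 1, and the methods' t-test gave 0 in KO muscle. Leaving out 1 experiment gave 0 in all of the diet contrasts. KO against WT in aorta gave 3 probes, 1 after quantile normalization, 8 under normexp, 1 with no filter, 0 with the strict filter, 1 with the slide as a block and 0 to 1 without 1 experiment, and in muscle 0 to 2. The diet response of aorta minus that of muscle gave 0, or 6 (quantile), 14 (normexp), 25 (strict filter) and 15 (slide). The tissue contrast gave 7694 probes, 12630 with no replicate block, 15402 with the pool as a block and 3009 to 7178 without 1 experiment, and the deposited table moved its median over all probes from −0.27 to −0.01. Of the aortic probes called for diet, 2 of 8 were higher on HFD, or 3 of 7 after quantile normalization. Probes past 1 in all experiments numbered 412 and 758 (WT and KO aorta) and 469 and 254 (muscle), or 234, 464, 259 and 90 under normexp and 126, 331, 212 and 77 with the strict filter, with 392 in KO muscle with no filter. With only 2 experiments required they were 1243 to 1783, 1903 to 2870, 1271 to 1659 and 720 to 1636. The causes of these shifts were not tested, except that fewer experiments must meet the last criterion. Ptgs2, Ptgfr and Ptger3 in muscle are limited by signal over background.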
